A study of Homo sapiens with 6 samples.

Results

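The genes described here are the epidermal growth factor (EGF) receptor family of A549 cells, the ligands of these receptors, and the related receptor MET. They were chosen by symbol: EGFR, ERBB2, ERBB3, AREG, EREG, HBEGF, TGFA, NRG1 and MET. All 9 symbols were found in the 6 deposited tables, as 9 of 53826 entries. All 9 also passed the filter of the study, TPM above 2 in at least 1 library, which kept 13181 genes. TPM scales reads by transcript length and by library, so it can be compared between genes. A549 is an established line from a human adenocarcinoma of the lung. A549-TIPARP cells stably overexpressed TIPARP, a mono-ADP-ribosyltransferase that dioxin induces through the aryl hydrocarbon receptor (AHR), from a retroviral vector. A549-GFP cells carried GFP from the same kind of vector and served as the control. Both are transduced lines of the same parent and were sequenced in 3 libraries each, with no other treatment given in the labels. The sample titles number the libraries of each line as experiments 1 to 3, here replicates 1 to 3, and do not say what an experiment shared or repeated, so the p-values measure the spread between these libraries.

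EGFR, ERBB2 and ERBB3 are receptor tyrosine kinases that signal as pairs through RAS-MAPK and PI3K-AKT. TGFA and AREG are ligands of EGFR. EREG and HBEGF bind EGFR and ERBB4, and NRG1 binds ERBB3 and ERBB4. ERBB2 has no known ligand of its own and serves as a partner, and ERBB3 has little kinase activity and passes the signal on through PI3K. MET is the receptor of hepatocyte growth factor (HGF) and can signal beside ERBB3. These receptors are driver genes or drug targets in lung adenocarcinoma.

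AREG and EREG had the largest differences between the lines among the 9 genes, and they are neighbours on chromosome 4, so the sequences before their starts are shown beside those of HBEGF and TGFA. RefSeq promoter windows (GRCh38.p14, the same assembly as hg38) were found for 7 of the 9 genes, in 9 windows. The 250 bases before the transcript start are printed 5′ to 3′ on the strand of the gene. Capitals mark the motifs searched on both strands: TATAAA (core promoter box), TGACGTCA (full cAMP response element), GGGCGG (GC box), GCGTG (core bound by AHR and its partner ARNT), GGAATG (bound by TEAD factors) and TGANTCA (AP-1 site). The windows are chr4:74444886-74445135 (AREG, plus strand), chr4:74364895-74365144 (EREG, plus strand), chr5:140346604-140346853 (HBEGF, minus strand) and chr2:70553827-70554076 (the first of the 2 TGFA windows, minus strand).
AREG: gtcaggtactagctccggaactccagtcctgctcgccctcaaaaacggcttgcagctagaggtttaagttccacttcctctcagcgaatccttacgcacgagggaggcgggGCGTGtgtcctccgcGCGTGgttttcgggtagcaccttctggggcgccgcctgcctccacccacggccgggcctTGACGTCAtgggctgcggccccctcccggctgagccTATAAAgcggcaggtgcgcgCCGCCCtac
EREG: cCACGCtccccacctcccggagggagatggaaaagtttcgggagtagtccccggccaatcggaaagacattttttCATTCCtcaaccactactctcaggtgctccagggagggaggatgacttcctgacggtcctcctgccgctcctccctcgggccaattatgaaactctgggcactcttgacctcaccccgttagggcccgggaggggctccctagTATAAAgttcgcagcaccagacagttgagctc
HBEGF: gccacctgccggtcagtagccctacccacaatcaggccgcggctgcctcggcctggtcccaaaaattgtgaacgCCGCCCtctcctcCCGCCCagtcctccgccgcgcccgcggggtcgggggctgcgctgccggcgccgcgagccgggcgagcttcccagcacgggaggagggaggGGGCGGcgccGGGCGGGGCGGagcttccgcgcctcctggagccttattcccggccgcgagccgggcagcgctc
TGFA: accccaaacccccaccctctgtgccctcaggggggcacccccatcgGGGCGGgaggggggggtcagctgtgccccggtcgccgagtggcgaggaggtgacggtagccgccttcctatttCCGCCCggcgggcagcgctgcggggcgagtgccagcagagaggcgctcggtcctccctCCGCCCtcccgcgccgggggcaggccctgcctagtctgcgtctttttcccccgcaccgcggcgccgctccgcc

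The windows of AREG and EREG each held a TATAAA, 29 to 24 and 32 to 27 bases before the start. Over all 35116 windows of the same length 10.7% held this motif on either strand, and those of HBEGF and TGFA did not. AREG alone among the 4 held TGACGTCA, which 1.65% of all windows held. AREG also had GCGTG at 2 places and EREG had its reverse complement at 1, a core found in 32.2% of all windows. EREG held the reverse complement of GGAATG, found in 11.9% of all windows. The HBEGF window had 5 GC boxes, of which a pair overlapped by 1 base, the TGFA window had 3 and the AREG window 1, against 42.6% of all windows with at least 1. TGANTCA, in 6.57% of all windows, was in none of these 4. Over all 9 windows found for the family, TATAAA was in 3 (the second EGFR window too), GCGTG in 4 (the second TGFA window and MET too), GGAATG in 2 (the second EGFR window too), GGGCGG in 5 (the first EGFR window and MET too) and TGANTCA in 2 (the second EGFR window and ERBB2), so most of these motifs are not particular to AREG and EREG. A match of letters describes the sequence and is no evidence that a factor binds there.

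The 9 genes spanned a wide range of levels. In the order of their geometric mean TPM over the 6 libraries they were AREG (72.9), MET (44.3), ERBB3 (36.6), ERBB2 (33.4), EREG (10.9), EGFR (9.09), TGFA (7.61), NRG1 (5.95) and HBEGF (1.80). Of the neighbours in this order, ERBB2 was above EREG and NRG1 above HBEGF in 6 of 6 libraries. AREG was above MET in 5 of 6 and TGFA above NRG1 in 5 of 6. The order of MET and ERBB3, ERBB3 and ERBB2, EREG and EGFR, and EGFR and TGFA differed between libraries, with the first of each pair higher in 4, 3, 4 and 3 of 6. AREG was thus the most abundant ligand transcript, and it took between 64.0% and 83.2% of the summed TPM of the 5 ligands.

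**Figure D1:**
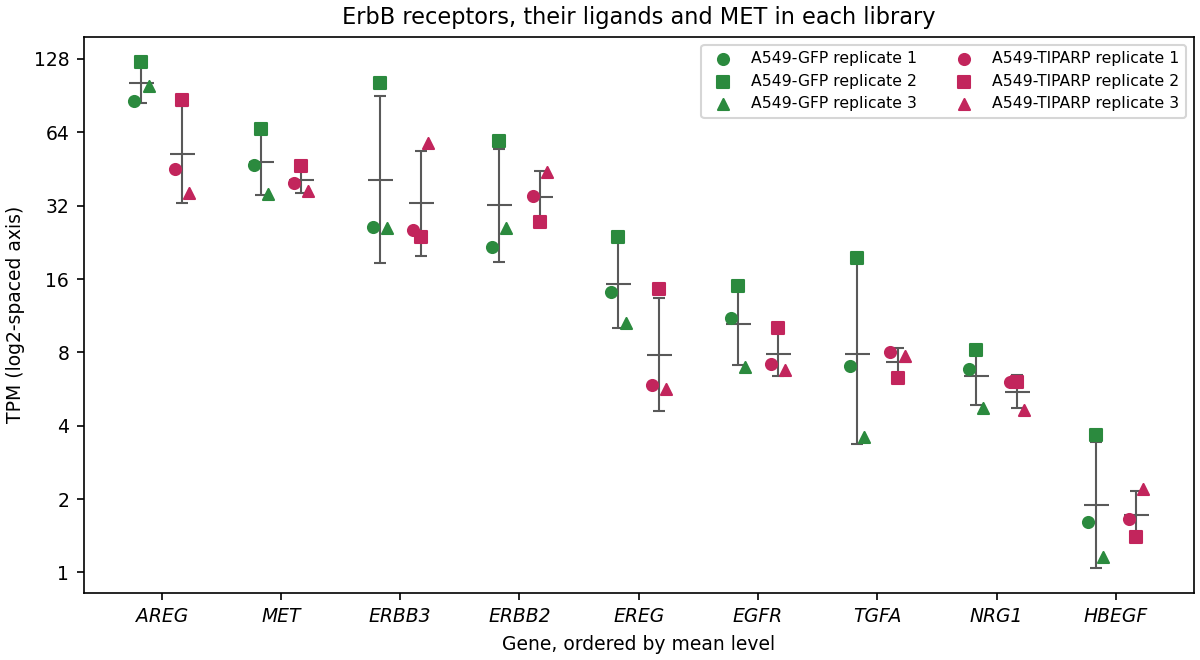
TPM of each gene (vertical axis, log2-spaced) in the 3 A549-GFP libraries (green) and the 3 A549-TIPARP libraries (magenta), with the mean and SD of log2 TPM as bars. For all 9 genes the green square, A549-GFP replicate 2, is the highest point, and the lines overlap in every gene.

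All 9 genes peaked in 1 control library, A549-GFP replicate 2, as did 52.0% of all 13181 genes. In it ERBB3 and TGFA stood 3.92-fold and 3.90-fold above the geometric mean of the other A549-GFP libraries, and AREG only 1.35-fold. That library stood apart in the whole series. It deviated from its line mean by 0.62 on the log2 scale (root mean square over genes), against 0.19 to 0.40 in the other 5 libraries. The median over genes of its deviation from the mean library was 0.27 on the same scale. The summed TPM of 6 epithelial markers, mainly KRT8 and KRT18, was 10774 in it and between 18544 and 23392 in the others. KRT8 and KRT18 carry this sum, and of the same markers KRT7 (2433 TPM) and CDH1 (142 TPM) were highest in that library. Among the 6 markers KRT19, a simple-epithelium keratin, had 2.54 to 5.36 TPM in A549-GFP and 10.9 to 19.2 TPM in A549-TIPARP (log2 fold change 1.75, limma adjusted p = 0.283). Of the markers of other cells, 6 of 6 endothelial, 5 of 6 mesenchymal and 3 of 5 leukocyte genes were listed at 0 in all libraries, and 4 of 5 lung lineage markers, NKX2-1 and SFTPC included, were at 0 too, with NAPSA at 1.03 to 4.43 TPM in A549-GFP and 1.93 to 2.65 TPM in A549-TIPARP. A gene listed at 0, on the log2 scale, may have any level up to 1 TPM, and such genes are left out of these sums. No endothelial marker thus had a level to sum in either line, and of the mesenchymal ones only COL1A1 had, at up to 1.44 TPM in A549-GFP (listed at 0 in replicate 2) and 1.64 to 2.56 TPM in A549-TIPARP. The leukocyte list summed to 28.1 to 73.1 TPM in A549-GFP, highest in replicate 2, and to 28.1 to 41.7 TPM in A549-TIPARP, mostly from CD68. A549-TIPARP replicate 3 was the lowest library for 4 of the 9 genes (EGFR, AREG, EREG and NRG1), against 23.4% of all genes. The part of these differences in the values below was not tested. TIPARP itself separated the lines, with 3.68 to 11.4 TPM in A549-GFP and 90.5 to 131 TPM in A549-TIPARP (limma adjusted p = 0.0125, and 0.513 with the experiment number as a block). The log2 fold change stayed between 3.54 and 4.24 with single libraries left out, with adjusted limma p-values of 0.0331 without A549-GFP replicate 2 and 0.0526 to 0.192 without any of the others. TPM keeps no record of the reads sequenced, so the depth of these libraries is unknown and errors of counting cannot be stated.

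To learn whether the receptor family differed between the lines, each gene was compared by limma on log2(TPM + 1) with adjustment over all 13181 genes. The mean was lower in A549-TIPARP cells for 8 of the 9 genes, where 59.9% of all genes had a lower mean on the deposited scale. The exception was ERBB2. By limma 0 of 9 had an adjusted p-value under 0.05, against 0.0152% of all genes, and the adjusted p-values ran from 0.983 to 0.996. At an unadjusted p-value under 0.05 there was 1 of 9, AREG, against 3.85% of all genes and 0.88% in this direction. The lines overlapped in 9 of 9 genes, while they did not overlap for 8.91% of all genes. The median log2 fold change of the 9 genes was -0.23, beside -0.06 over all genes. Without A549-GFP replicate 2 it was -0.01, beside 0.04 over all genes, and the difference was then below 0 for 5 of 9, against 42.6% of all genes. In that fit 0 of 9 had an unadjusted limma p-value under 0.05, against 9.3% of all genes higher and 1.16% lower in A549-TIPARP.

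**Figure D2:**
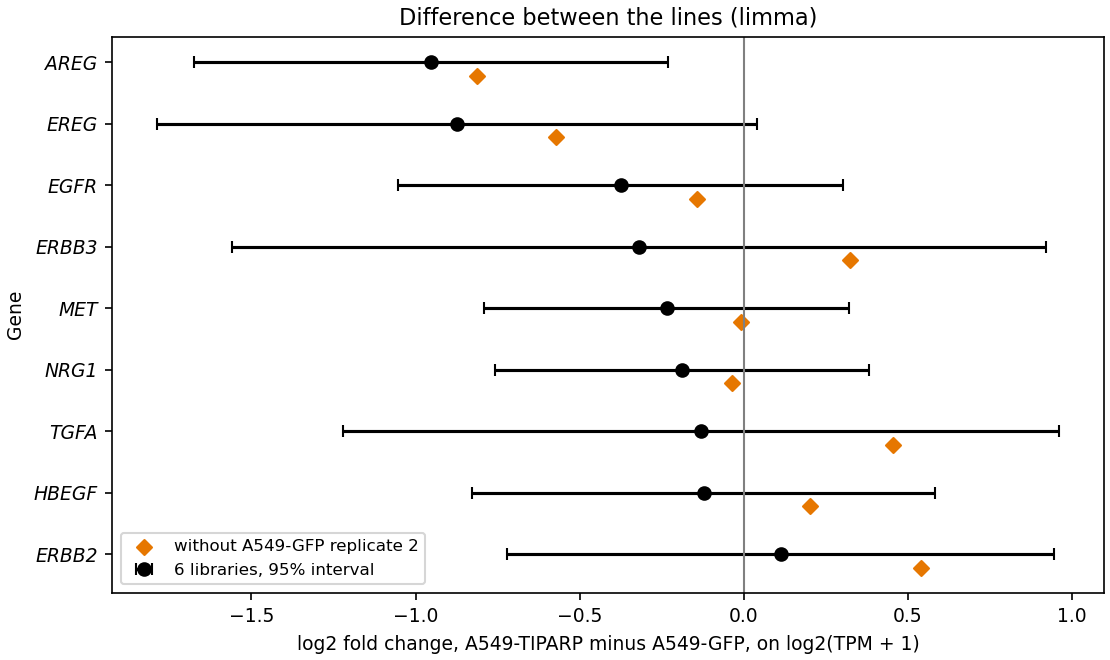
log2 fold change of each gene, A549-TIPARP minus A549-GFP, on log2(TPM + 1) with its 95% interval from limma (black) and without A549-GFP replicate 2 (orange). Only the interval of AREG, from -1.68 to -0.23, leaves out 0 before adjustment, and ERBB3, TGFA and HBEGF change sign without that library.

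AREG, amphiregulin, is made as a membrane precursor that ADAM17 cuts loose. The gene spans positions 74445136 to 74455005 of chromosome 4 (hg38, plus strand), in 6 exons of its canonical GENCODE transcript. Its TPM was 85.7, 124 and 99.4 in A549-GFP replicates 1, 2 and 3, and 45.2, 87.0 and 36.0 in A549-TIPARP replicates 1, 2 and 3. The lines met in 1 place, where A549-TIPARP replicate 2 stood just above A549-GFP replicate 1. The mean log2 TPM was 6.67 ± 0.27 (SD, n = 3) in A549-GFP and 5.70 ± 0.66 (SD, n = 3) in A549-TIPARP, a 1.96-fold lower geometric mean. On log2(TPM + 1) the difference was -0.95 (standard error 0.32, 95% interval -1.68 to -0.23), with an adjusted p of 0.983 in limma. Compared alone, the mean log2 TPM differed with an exact two-sided permutation p of 0.20, where 0.10 is the smallest that 3 against 3 libraries allow. With single libraries left out the difference stayed between -1.32 and -0.69. The unadjusted limma p-value was under 0.05 without A549-GFP replicate 1 or A549-TIPARP replicate 2, and above it without any of the other 4 libraries. The size was greatest without A549-TIPARP replicate 2, the library of that line with the most AREG.

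EREG, epiregulin, lies 56386 bases before AREG on the same strand, at 74365145 to 74388749, in 5 exons. Its TPM was 14.2, 23.8 and 10.5 in A549-GFP and 5.85, 14.6 and 5.65 in A549-TIPARP. As for AREG, A549-TIPARP replicates 1 and 3 were the lowest libraries and A549-TIPARP replicate 2 lay among the A549-GFP libraries. The mean log2 TPM was 3.93 ± 0.60 (SD, n = 3) against 2.97 ± 0.77 (SD, n = 3), or 1.95-fold lower in A549-TIPARP. On log2(TPM + 1) this was -0.87 (standard error 0.40, 95% interval -1.79 to 0.04), with an adjusted p of 0.994 in limma. The exact two-sided permutation p for the mean log2 TPM alone was 0.30. Leaving out A549-TIPARP replicate 2 brought the difference to -1.27 and leaving out A549-GFP replicate 3 to -1.12, both with an unadjusted limma p-value under 0.05, and leaving out A549-GFP replicate 2 brought it to -0.57. The ratio of AREG to EREG was 6.03, 5.21 and 9.44 in A549-GFP and 7.72, 5.98 and 6.36 in A549-TIPARP. On the log2 scale this ratio differed by -0.01 between the lines (exact permutation test, two-sided, p = 0.90, the smallest possible being 0.10).

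The other EGFR ligands did not share this pattern. TGFA, on chromosome 2 from 70447284 to 70554193 on the minus strand, had 7.01, 19.6 and 3.60 TPM in A549-GFP and 8.05, 6.29 and 7.76 TPM in A549-TIPARP. All A549-TIPARP libraries lay inside the A549-GFP range, which was 2.44 wide on the log2 scale, the widest of the 9 genes. Its log2 fold change of -0.13 had a 95% interval of -1.22 to 0.96, and turned to 0.46 without A549-GFP replicate 2. HBEGF, the heparin-binding ligand, lies on chromosome 5 from 140332843 to 140346603 on the minus strand. Its TPM was 1.61, 3.65 and 1.15 in A549-GFP and 1.65, 1.40 and 2.19 in A549-TIPARP, close to the lowest value of the tables, 1 TPM. Its log2 fold change of -0.12 had a 95% interval of -0.83 to 0.58, and became 0.20 without A549-GFP replicate 2.

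NRG1, neuregulin 1, lies on chromosome 8 from 31639222 to 32855666 on the plus strand. It had 6.81, 8.20 and 4.73 TPM in A549-GFP and 6.04, 6.02 and 4.63 TPM in A549-TIPARP. It varied least of the 9 genes, 1.77-fold from the lowest library to the highest. The log2 fold change was -0.19, with a 95% interval of -0.76 to 0.38, and -0.04 without A549-GFP replicate 2 but -0.38 without A549-GFP replicate 3. The summed TPM of the 5 ligands was 115, 180 and 119 in A549-GFP and 66.8, 115 and 56.2 in A549-TIPARP. The sums of A549-GFP replicate 1 (115.35) and A549-TIPARP replicate 2 (115.29) were almost equal. TGFA took from 3.01% to 13.8% of the sum and HBEGF from 0.967% to 3.90%.

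**Figure D3:**
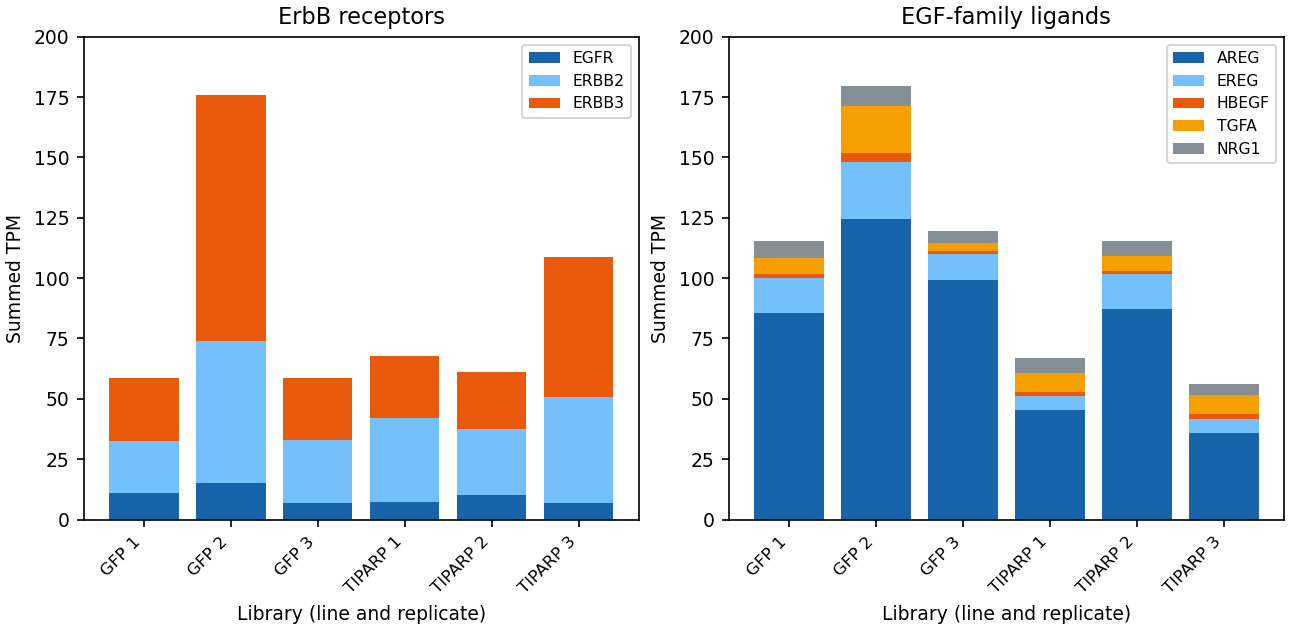
Summed TPM of the ErbB receptors (left) and of the EGF-family ligands (right) in each library, divided by gene. AREG makes up most of each ligand bar, and the receptor bars of A549-GFP replicate 2 (176 TPM) and A549-TIPARP replicate 3 (109 TPM) stand above the other 4, at 58.6 to 67.6 TPM.

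Of the receptors, EGFR lies on chromosome 7 at 55019017 to 55211628 (plus strand), in 28 exons of the canonical transcript. Its TPM was 11.1, 14.9 and 6.95 in A549-GFP and 7.19, 10.1 and 6.78 in A549-TIPARP. A549-TIPARP replicate 3 was the lowest library and A549-GFP replicate 3 lay beside it. The mean log2 TPM was 3.39 ± 0.56 (SD, n = 3) against 2.98 ± 0.31 (SD, n = 3). On the log2(TPM + 1) scale it differed by -0.37 (95% interval -1.05 to 0.30, limma adjusted p = 0.994). It was -0.14 with A549-GFP replicate 2 left out and -0.64 with A549-GFP replicate 3 left out, so either library moved it by more than 1.5 times. The antisense entry within this gene, EGFR-AS1, was not used, and the sources do not state whether reads were counted by strand.

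ERBB2 lies on chromosome 17 from 39687914 to 39730426 on the plus strand. Its TPM was 21.6, 59.1 and 25.9 in A549-GFP and 35.1, 27.3 and 44.1 in A549-TIPARP. The A549-TIPARP libraries lay above A549-GFP replicates 1 and 3 and below replicate 2. Its log2 fold change was 0.11 (95% interval -0.72 to 0.95), the one positive value of the 9, and 0.54 without A549-GFP replicate 2. It was -0.16, -0.04 and -0.05 without A549-GFP replicate 1, A549-GFP replicate 3 and A549-TIPARP replicate 3. ERBB3, on chromosome 12 from 56076799 to 56103505 on the plus strand, had 26.1, 102 and 25.8 TPM in A549-GFP and 25.4, 23.8 and 57.8 TPM in A549-TIPARP. In 4 of the 6 libraries ERBB3 lay within 23.8 to 26.1 TPM, and A549-GFP replicate 2 and A549-TIPARP replicate 3 stood apart, 1 in each line. Over all analysed genes the deviations of these 2 libraries from their line means had a correlation of 0.60, so their likeness is not particular to ERBB3. The log2 fold change of ERBB3 was -0.32 with the widest interval of the 9 genes, -1.56 to 0.92, and 0.32 without A549-GFP replicate 2.

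EGFR took between 6.24% and 18.9% of the summed receptor TPM, ERBB2 between 33.6% and 51.9%, and ERBB3 between 37.5% and 57.9%. The ratio of ERBB2 to EGFR was 1.94, 3.95 and 3.72 in A549-GFP and 4.88, 2.71 and 6.50 in A549-TIPARP. Its log2 difference of 0.53 between the lines had an exact permutation p of 0.40 (two-sided). The ratios of ERBB3 to EGFR, ERBB3 to ERBB2 and TGFA to EGFR also overlapped between the lines, with exact permutation p-values of 0.90, 0.30 and 0.70. Adjusted over the 5 ratios computed, which were chosen after the values had been seen, each of these permutation p-values was 0.90.

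MET, on chromosome 7 from 116672196 to 116798377 on the plus strand, had 47.0, 66.3 and 35.8 TPM in A549-GFP and 39.8, 46.5 and 36.7 TPM in A549-TIPARP. The A549-TIPARP libraries were close together and all lay inside the A549-GFP range. Its log2 fold change was -0.24 (95% interval -0.79 to 0.32), and -0.01 without A549-GFP replicate 2 but -0.44 without A549-GFP replicate 3. HGF, the ligand of MET, was listed at 0 in all 6 libraries.

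The profiles of the 9 genes over the libraries are described in 3 groups, formed after the values had been seen. NRG1, MET and EGFR had the smallest root mean square differences, 0.11 to 0.20, between their log2 TPM centred on the mean of the 6 libraries. This measure is not scaled by the spread of a gene, and these 3 genes varied least. Their SD of log2 TPM over the 6 libraries was 0.31 to 0.46, against 0.54 to 0.87 for the others. Genes that vary little come out close by this measure, so the small values do not show that they vary together. AREG and EREG differed by 0.28, and HBEGF differed by 0.26, 0.27 and 0.34 from ERBB2, TGFA and ERBB3. The largest difference was 0.96, between AREG and ERBB3. A549-TIPARP replicate 3 was the lowest library for AREG, EREG, EGFR and NRG1 and the second highest for ERBB2, ERBB3 and HBEGF. The grouping is not sharp, since ERBB2, ERBB3 and TGFA differed from each other by 0.41 to 0.48, more than HBEGF from MET (0.38) or EGFR from EREG (0.40).

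**Figure D4:**
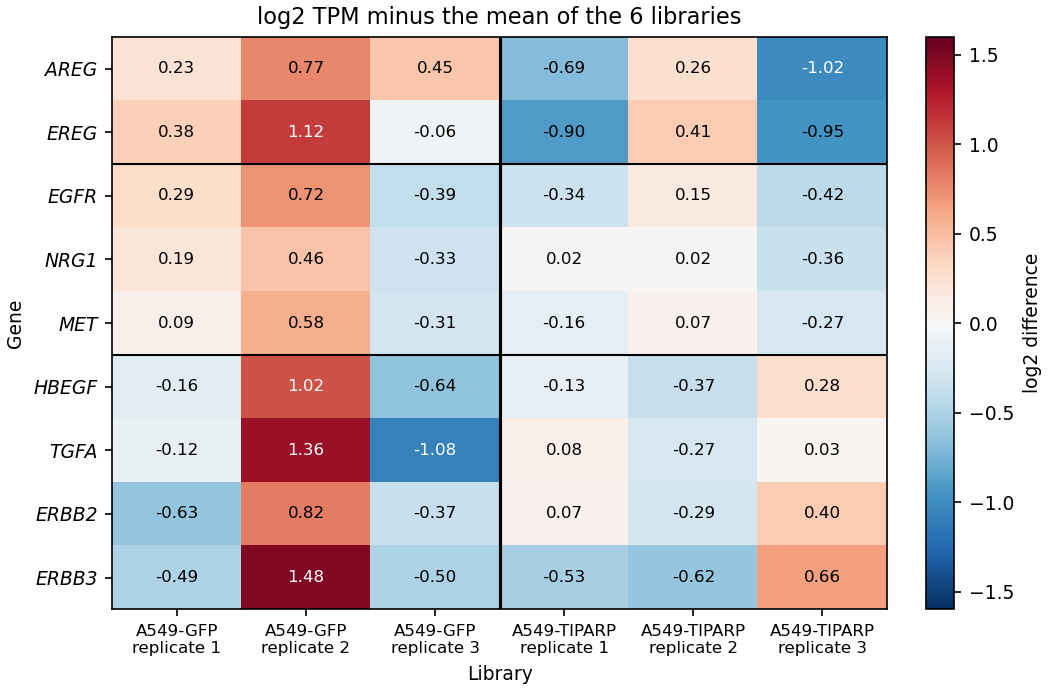
log2 TPM of each gene minus its mean over the 6 libraries (red above, blue below), with the libraries as columns and black lines between the 3 groups of genes. In A549-TIPARP replicate 3 AREG stands at -1.02 and EREG at -0.95, while ERBB3 stands at 0.66 and ERBB2 at 0.40.

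Among all other analysed genes, those nearest to AREG by this measure were RNU6-2 (0.14), TAF1A (0.24), METTL4 (0.27), TM4SF19-TCTEX1D2 (0.27) and UPP1 (0.28), with EREG at rank 9 of all. RNU6-2 had at most 3.02 TPM and was at the floor of 1 TPM in A549-TIPARP replicate 3. In that library TM4SF19-TCTEX1D2 was near the floor too, at 1.38 TPM. Those nearest to TGFA, the gene with the widest range, were RMDN2 (0.11), FRG1JP (0.13), SLCO1B7 (0.15), ADGRG1 (0.15) and EME2 (0.16).

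Other genes of the pathway were read from lists of their own. Of 10 further receptors and ligands, 4 were listed at 0 in all libraries: the receptor ERBB4 and the ligands EPGN, NRG3 and HGF. EGF was listed above 0 in 2 libraries, at no more than 1.66 TPM. The 5 that passed the filter were BTC, NRG2, NRG4, MST1R and MST1, and none of them had an unadjusted limma p-value under 0.05. NRG4, a ligand of ERBB4, had 10.9, 9.29 and 7.33 TPM in A549-GFP and 8.07, 7.94 and 4.21 TPM in A549-TIPARP. MST1R, the receptor nearest to MET, was even, with 16.9 to 21.7 TPM in A549-GFP and 17.1 to 19.1 TPM in A549-TIPARP.

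Of the 8 analysed sheddases and cofactors, which release the ligands from the membrane, 6 had the higher mean with TIPARP overexpressed, against 39.6% of all genes. None passed adjustment in limma, and 1 in each direction had an unadjusted p-value under 0.05, where 2.97% of all genes were higher and 0.88% lower at that level. Without A549-GFP replicate 2 there were 2 higher ones, RHBDF1 and ADAM15, where 9.3% of all genes were. In the same fit 1 gene, ADAM12, was lower at that level, where 1.16% of all genes were. RHBDF1, the inactive rhomboid that helps ADAM17 to mature, had 8.51, 12.5 and 8.38 TPM in A549-GFP and 17.2, 15.5 and 18.6 TPM in A549-TIPARP. The lowest A549-TIPARP library was above the highest A549-GFP library, with a log2 fold change of 0.76 (standard error 0.23, limma adjusted p = 0.856). Lines that do not overlap in this direction were found for 5.36% of all genes. ADAM12 had 4.38, 3.14 and 2.93 TPM in A549-GFP and 1.74, 1.85 and 2.42 TPM in A549-TIPARP, again with no overlap, as for 3.54% of all genes in this direction (log2 fold change -0.57, limma adjusted p = 0.994). RHBDF2 also did not overlap, at 21.3 to 22.8 TPM against 24.3 to 24.6 TPM. ADAM17, the main sheddase of AREG, HBEGF and TGFA, had a log2 fold change of -0.13 with a limma adjusted p of 0.994. With single libraries left out it ranged from -0.26 to -0.05.

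Of 26 adaptors and first effectors, from GRB2 and SHC1 to the MAP kinases and AKT, 12 were higher and 14 lower in mean with TIPARP overexpressed, and by limma 0 had an unadjusted p-value under 0.05. GAB1, among the 14, passed the filter only through A549-GFP replicate 2, at 2.42 TPM. Of 18 analysed receptor inhibitors and turnover factors, among them ERRFI1, LRIG1 and CBL, 5 were higher and 13 lower, also with 0 at that level. Without A549-GFP replicate 2 these counts turned to 14 and 12 for the adaptors and to 11 and 7 for the inhibitors, while the number of higher genes over all 13181 went from 5220 to 7565. In each list 1 gene, higher, then had an unadjusted limma p-value under 0.05, against 9.3% of all genes. Among the inhibitors PTPRJ, a receptor phosphatase, did not overlap, with 13.4 to 16.0 TPM against 16.3 to 19.2 TPM, as for 5.36% of all genes in this direction. The medians of the adaptors and the inhibitors were -0.10 and -0.11 on the log2 scale, beside -0.06 over all genes. Without A549-GFP replicate 2 they were 0.05 and 0.06, beside 0.04 over all genes. Of 4 analysed genes that activate HGF or hold its activators back, 1 had a higher mean and 3 a lower one, with 0 at an unadjusted limma p-value under 0.05. Without A549-GFP replicate 2 all 4 were higher, against 57.4% of all genes, and 2 of them at that level, against 9.3% of all genes.

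Of 17 analysed genes of MAPK output and feedback, 15 were lower in mean with TIPARP overexpressed, against 60.4% of all genes, and 14 were highest in A549-GFP replicate 2, against 52.0%. SPRED3 is in both counts but passed the filter only through A549-GFP replicate 2, at 2.33 TPM. Its highest library was thus fixed by the filter, and it adds no support to either count. The median log2 fold change of the 17 genes was -0.17, beside -0.06 over all genes. Without A549-GFP replicate 2 the median was 0.01, beside 0.04, with 9 genes higher and 8 lower. FOSL1, an AP-1 subunit, was the one with an unadjusted limma p-value under 0.05 over all 6 libraries, where 0.88% of all genes were lower at that level. Without A549-GFP replicate 2 there were 2 such genes, both lower, FOSL1 among them, against 1.16% of all genes. It had 28.4, 36.4 and 22.3 TPM in A549-GFP and 15.7, 20.7 and 13.5 TPM in A549-TIPARP. No A549-TIPARP library reached the lowest A549-GFP library, as for 3.54% of all genes, with a log2 fold change of -0.76 (standard error 0.25, limma adjusted p = 0.966). As in AREG and EREG, its highest A549-TIPARP library was replicate 2 and its lowest replicate 3.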

How the data were processed

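Poly(A) libraries of A549-GFP and A549-TIPARP cells (3 each) were sequenced from both ends by a service provider. The authors used Strand NGS at default parameters for alignment to the transcriptome of hg38 and deposited the values as log2 TPM, in a table for each library, where TPM below 1 had been set to 1 (a log2 value of 0). The software version, the annotation release and the treatment of reads matching several genes are not given in the sources used here. No counts were analysed, so the depth of the libraries is unknown.

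Lines and replicate numbers were taken from the sample titles. Values were turned back to TPM, genes with TPM above 2 in at least 1 library were kept, and log2(TPM + 1) was fitted by limma 3.58.1 (R 4.3.3) with a trend of the variance and no block, adjusting over 13181 genes by Benjamini-Hochberg. A pseudocount of 1 lowers the fold change of low genes. Folds are differences of mean deposited log2 TPM. Single values and ratios were compared by exact permutation. The fit was first tested on simulated data in which 200 genes changed. Positions come from GENCODE 44 (hg38) and promoters from RefSeq (GRCh38.p14).

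The 9 genes, the pathway lists and the tests were chosen with earlier results of these data known. Beyond the 9 genes and TIPARP, list genes were named if they had an unadjusted p-value under 0.05, or differed more than 1.5-fold with no overlap of the lines (up to 5 in each direction), as were the 5 genes nearest in profile to AREG and to TGFA. Genes outside this rule were named after their values were seen.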

Additional observations from a re-analysis of the deposited data

How the results depend on the processing

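For the 9 genes 116 values were computed under 13 alternatives (a pseudocount of 0.1, the deposited scale, a filter on 3 libraries or none, median-ratio rescaling, no variance trend, a replicate block, and each library left out). HBEGF was above 2 TPM in fewer than 3 libraries and has no value under that filter, and entries at 0 in every library were left out of the fit with no filter. In 110 of the 116 values the direction was kept, and 0 had an adjusted p-value under 0.05 (limma, 0.484 to 1.0). The 6 changes of sign among these all came with a library left out. A further alternative, the log2 ratio of arithmetic means of TPM in place of the difference of mean log2 TPM, took ERBB2 from 0.12 to -0.0004 and TGFA from -0.11 to -0.45, and left the other 7 genes lower. Without A549-GFP replicate 2 ERBB3, HBEGF and TGFA went to 0.32, 0.20 and 0.46. ERBB2 went to -0.16 and -0.04 without A549-GFP replicates 1 and 3, and to -0.05 without A549-TIPARP replicate 3. With a library left out the values ranged from -0.16 to 0.54 for ERBB2, -0.72 to 0.32 for ERBB3, -0.35 to 0.20 for HBEGF, -0.62 to 0.46 for TGFA, -0.64 to -0.14 for EGFR, -0.38 to -0.04 for NRG1 and -0.44 to -0.01 for MET. The cause was not tested. Over all genes 2 passed adjustment, against 1 with no filter, 1 with the replicate block and from 1 to 3 with a library left out. The deviations of libraries 1, 2 and 3 of both lines from their line means had correlations of 0.41, -0.49 and -0.36 over genes. The largest correlations were between unlike numbers. A549-TIPARP replicate 3 had 0.60 with A549-GFP replicate 2 and -0.62 with A549-GFP replicate 1. The titles give both lines the same experiment numbers without saying what these share, and the fit reported has no block. With the replicate block 2 of the 9 genes, AREG and EREG, had an unadjusted limma p-value under 0.05, both lower, against 0.895% of all genes in this direction and 3.14% in either, and the adjusted p-value was 0.999 for both. AREG, EREG, EGFR and NRG1 were lower in A549-TIPARP in 3 of 3 experiment numbers, against 13.6% of all genes. TIPARP itself lost its call with the block (limma adjusted p = 0.513), with no filter (limma adjusted p = 0.0965) and with any library but A549-GFP replicate 2 left out. Median-ratio rescaling moved the median of all genes from -0.06 to -0.00 and AREG from -0.95 to -0.89. The depth is unknown, and HBEGF lies near the floor.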

Other observations

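Within 500000 bases of EREG or AREG on chromosome 4 there were 9 analysed genes: CXCL1, CXCL5, CXCL3, CXCL2, MTHFD2L, EREG, AREG, BTC and PARM1. This window was chosen after the values of AREG and EREG had been seen. The direction of AREG and EREG was known when it was chosen, so they are left out of the counts. The other 7 genes were all lower in mean with TIPARP overexpressed, against 60.4% of all genes, and all highest in A549-GFP replicate 2, against 52.0%. BTC is among the 7 but passed the filter only through A549-GFP replicate 2. Its highest library was thus fixed by the filter, and it adds no support to either count. Without that library 2 of the 7 (CXCL2 and MTHFD2L) were lower, against 42.6% of all genes. MTHFD2L, a mitochondrial folate enzyme, is the nearest analysed gene before EREG. It had 5.0, 7.67 and 4.95 TPM in A549-GFP and 3.71, 3.81 and 3.78 TPM in A549-TIPARP. It was the one gene of the window whose lines did not overlap, as for 3.54% of all genes in this direction (log2 fold change -0.51, limma adjusted p = 0.994). BTC, another EGFR ligand of the same cluster, reached 3.68 TPM in A549-GFP replicate 2 and at most 1.57 TPM in the other libraries.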
